A study of Mus musculus with 2 samples.

Results

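MHC class II molecules carry peptides from taken-up antigen to the cell surface, where CD4+ T cells read them, and the 10 mouse genes described here encode that machinery. They were taken as a fixed list of names: H2-Aa, H2-Ab1, H2-Eb1, H2-DMa, H2-DMb1, H2-DMb2, H2-Oa, H2-Ob, Cd74 and Ciita, 10 of the 30905 genes listed in both libraries. H2-Aa and H2-Ab1 encode the chains of I-A, and H2-Eb1 encodes the beta chain of I-E, whose alpha chain gene is not functional in C57BL/6 mice. Cd74 encodes the invariant chain, which guides class II through the secretory pathway and blocks its groove. H2-DM (H2-DMa with H2-DMb1 or H2-DMb2) exchanges the last piece of the invariant chain for antigen peptides in the lysosome, and H2-O (H2-Oa with H2-Ob) holds H2-DM back, mainly in B cells. Ciita encodes the coactivator that switches the other genes on, with separate promoters used in dendritic cells, in B cells and after interferon gamma. In the gut, B cells, dendritic cells, macrophages and some innate lymphoid cells are known to carry class II.

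The cells were CD45+ leukocytes from colorectal tumors raised in male C57BL/6 mice with AOM (azoxymethane, 12 mg/kg), which mutates colon cells, and DSS (dextran sodium sulfate, 2.5%), which injures the epithelium and was given in 3 cycles of 7 days followed by 14 days of water. One group received a fasting-mimicking diet (FMD) and the other ate ad libitum, both from the second cycle on, and both groups received AOM and DSS. Each diet is 1 library of droplet 3′ RNA-seq pooled from 4 mice, so values below compare these 2 libraries and no test between diets was possible. The extraction text in the labels also speaks of normal colon, and whether any entered these libraries is not given there.

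After filtering, 4599 cells of the FMD library and 4858 of the ad libitum library remained, with medians of 5732 and 5503 unique molecular identifiers (UMIs, 1 per captured RNA molecule) per cell. The kept cells held 31673837 and 32989506 UMIs, and only 4 of their barcodes occurred in both libraries. Cells were clustered with all class II genes left out of the clustering genes, and classes were named from markers that include none of them. Of the naming markers, all 14 for dendritic, 10 for germinal center and 10 for plasma cells were detected in their class in both libraries, as were 13 (FMD) and 12 (ad libitum) of 13 for macrophages or monocytes, with C1qa at 0 in ad libitum cells. Levels are given as CPM, the UMI counts of a gene per 1000000 UMIs that a class holds in a library outside immunoglobulin and mitochondrial genes. Brackets hold 95% intervals that cover counting error only, and differences between libraries are log2 of FMD over ad libitum. A 3′ protocol gives 1 tag per molecule whatever the transcript length, so levels of different genes are compared per molecule captured. H2-DMb1 and H2-DMb2 are near-identical copies, and how the counting split their reads is uncertain.

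The 2 libraries held 2745 FMD and 3078 ad libitum B-like cells, which fell into 5 states. These were Egr-high cells (623 FMD, 853 ad libitum), named for immediate early genes; heat shock-high cells (110, 186); interferon-high cells (152, 59); Bhlhe41-high cells (344, 347); and other B-like cells (1516, 1633), which lead with none of these programs. Germinal center B-like cells numbered 79 and 61, plasma-like cells 32 and 90, conventional dendritic-like cells 96 and 72, macrophage or monocyte-like cells 60 and 25, Gata3-high innate lymphoid-like cells 81 and 24 and Ncr1-high innate lymphoid-like cells 55 and 23. T-like cells (1255 FMD, 1270 ad libitum), which carry little or no class II in mice, served as the measure of free RNA.

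As a share of RNA, class II message was highest in dendritic-like cells, common to all B-like states and lower in germinal center B-like cells. It was reduced mainly to Cd74 in plasma-like cells and present in a portion of macrophage or monocyte-like cells. The 10 genes together made up 5.44% of UMIs in FMD and 5.05% in ad libitum dendritic-like cells, against 3.08% and 2.96% in B-like cells. Their share was 1.62% and 1.799% in germinal center B-like cells and 1.72% and 1.57% in macrophage or monocyte-like cells. It was 0.744% and 0.687% in plasma-like cells, 0.231% and 0.183% in Ncr1-high and 0.0909% and 0.0955% in Gata3-high innate lymphoid-like cells, and 0.04996% and 0.0399% in T-like cells.

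**Figure D1:**
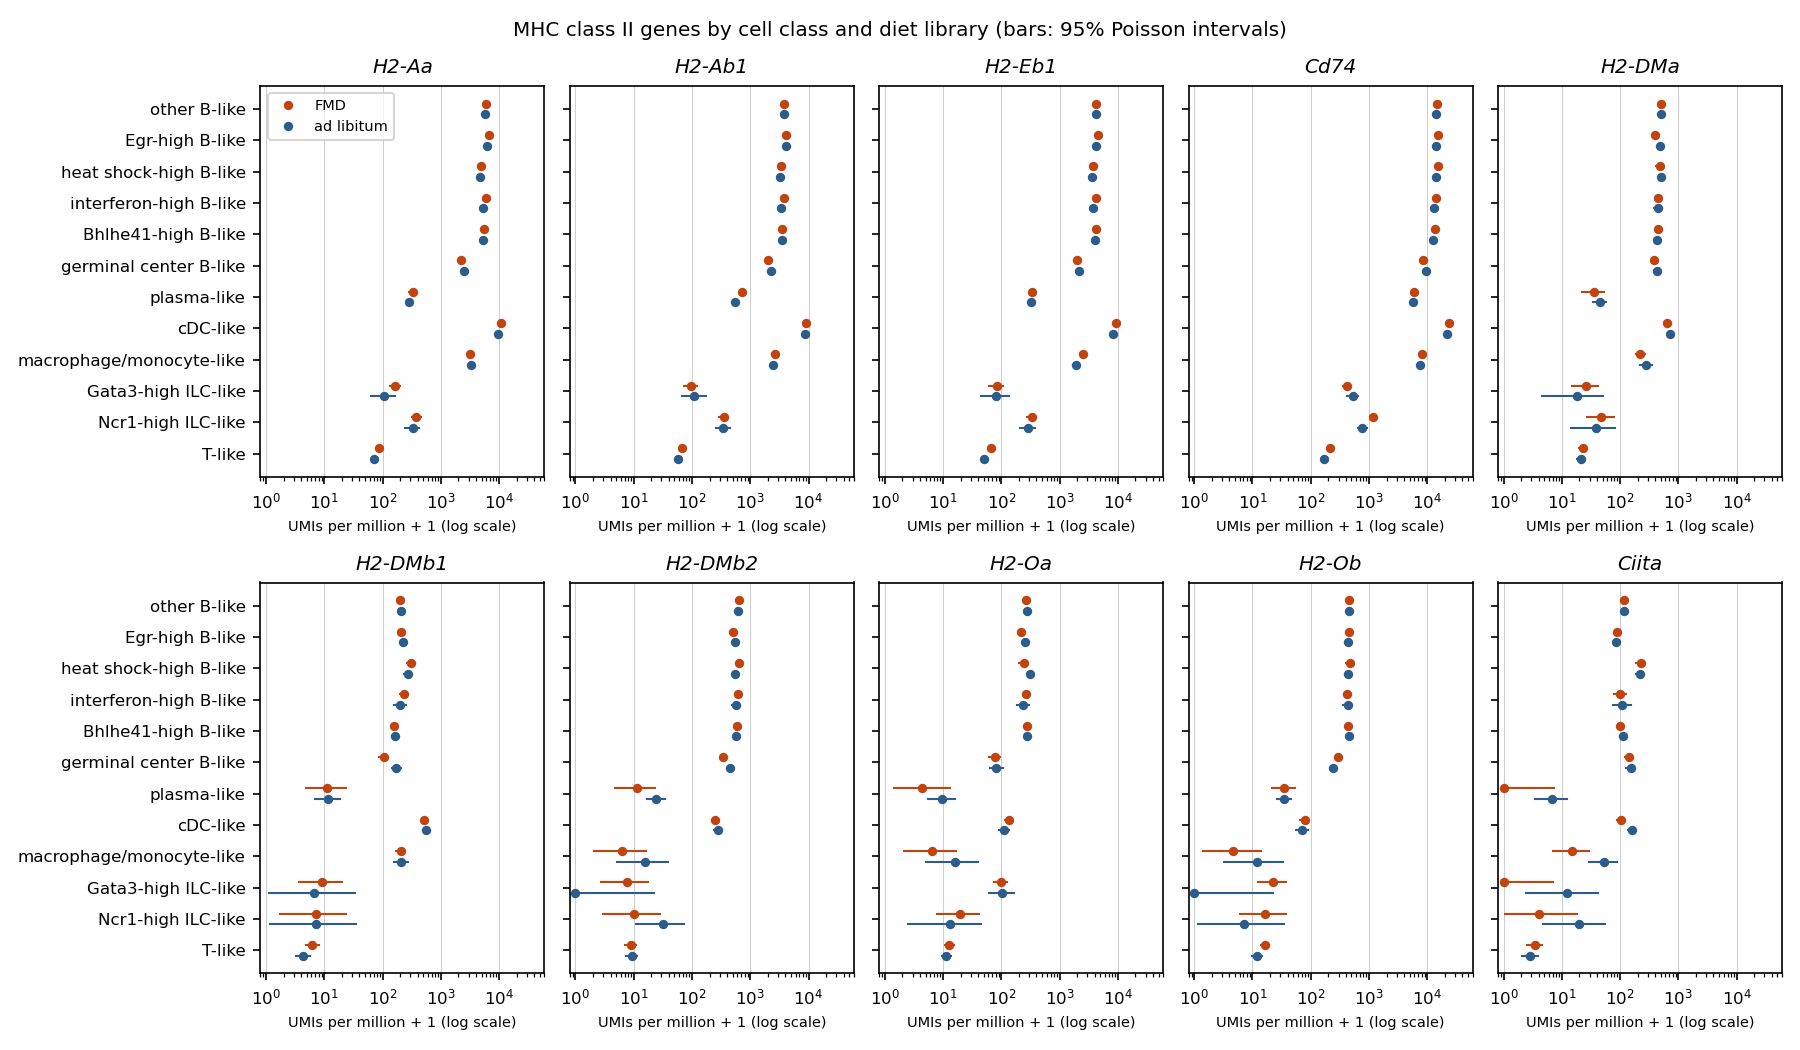
Level of each gene (CPM plus 1, log axis) in 12 cell classes, FMD above ad libitum in each row, with 95% Poisson intervals. Dendritic-like cells lead for 6 of the 10 genes, while H2-DMb2, H2-Oa and H2-Ob are highest in B-like states and Ciita in heat shock-high B-like cells.

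The antigen-presenting chains and the invariant chain had the same leading class. H2-Aa had 10683 CPM in FMD and 9678 in ad libitum dendritic-like cells, and 6049 and 5752 in B-like cells. H2-Ab1 had 8878 and 8542 in dendritic-like cells and 3785 and 3820 in B-like cells, and H2-Eb1 had 9192 and 8376 against 4280 and 4140. Cd74, the most abundant of the 10, had 23893 and 22027 in dendritic-like cells and 14627 and 13811 in B-like cells. The levels of dendritic-like cells were thus 1.77-fold (FMD) and 1.68-fold (ad libitum) those of B-like cells for H2-Aa, 2.35-fold and 2.24-fold for H2-Ab1, 2.15-fold and 2.02-fold for H2-Eb1 and 1.63-fold and 1.60-fold for Cd74. With droplets that hold markers of more than one lineage kept, the mean log2 difference of H2-Aa was 0.15 in place of 0.79. That of Cd74 was 0.20 in place of 0.69. Dendritic-like cells had median totals of 17310.5 and 14643.5 UMIs, against 5210 and 5064.5 in B-like cells, and levels are shares of RNA. H2-Aa had 16093 UMIs in 96 FMD and 9162 in 72 ad libitum dendritic-like cells. In B-like cells it had 87395 in 2745 and 90578 in 3078, so the difference per cell was larger than that of shares.

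H2-DM and H2-O divided dendritic-like from B-like cells. H2-DMa had 638.6 and 730.9 CPM in FMD and ad libitum dendritic-like cells, against 464.8 and 482.0 in B-like cells. H2-DMb1 had 522.5 and 546.1, against 199.4 and 206.6. H2-DMb2 ran the other way, with 243.6 and 273.6 in dendritic-like cells and 605.8 and 581.1 in B-like cells. H2-DMb2 thus held 31.8 and 33.4 of every 100 UMIs of the H2-DMb1 and H2-DMb2 pair in dendritic-like cells, 76.5 and 74.7 in other B-like cells, and 2.54 and 6.67 in macrophage or monocyte-like cells.

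The H2-O genes were higher in B-like than in dendritic-like cells. H2-Oa had 133.4 CPM in FMD and 112.0 in ad libitum dendritic-like cells, against 255.1 and 271.8 in B-like cells, and H2-Ob had 77.7 and 70.8, against 449.3 and 449.5. In macrophage or monocyte-like cells, H2-Oa rested on 3 and 4 UMIs and H2-Ob on 2 and 3. Per 100 UMIs of the 3 H2-DM genes, the 2 H2-O genes had 15.03 [13.3, 16.9] UMIs in FMD and 11.8 [10.0, 13.8] in ad libitum dendritic-like cells, 2.07 [0.665, 4.89] and 5.22 [2.06, 11.1] in macrophage or monocyte-like cells, and 53.1 [51.4, 54.9] and 55.9 [54.1, 57.7] in other B-like cells. The intervals of other B-like cells lay above those of both myeloid-like classes. The pair was also split: H2-Ob had 173.4 and 166.3 UMIs per 100 of H2-Oa in other B-like cells and 58.2 and 63.2 in dendritic-like cells.

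**Figure D2:**
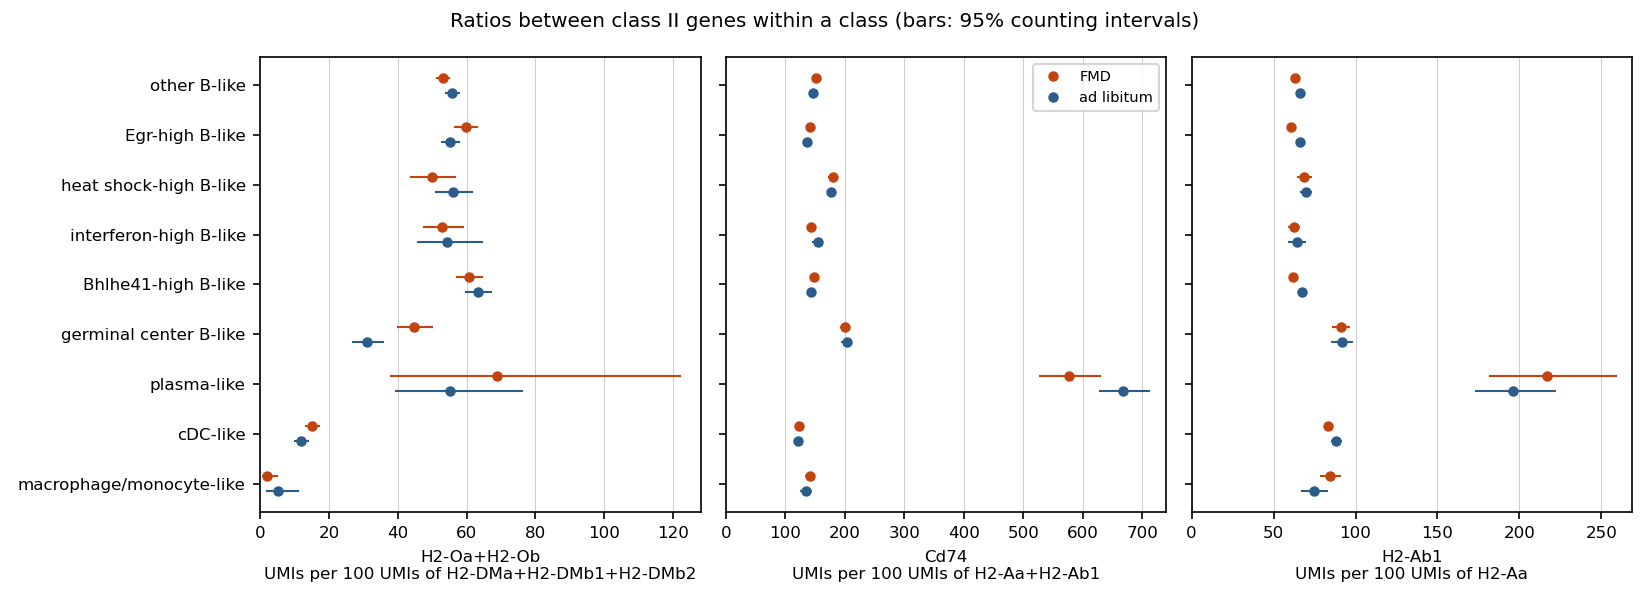
Ratios between class II genes inside a class (UMIs of the numerator genes per 100 UMIs of the denominator genes), FMD above ad libitum, with 95% counting intervals. H2-O per H2-DM is lowest in myeloid-like classes and Cd74 per I-A is highest in plasma-like cells, in both libraries.

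As a share of RNA, Ciita was not highest where the presenting chains were. It had 102.9 [87.3, 120.4] CPM in FMD and 159.5 [135.1, 187.1] in ad libitum dendritic-like cells, beside 108.7 and 111.2 in B-like cells. Per 100 UMIs of H2-Aa plus H2-Ab1, Ciita had 0.526 and 0.875 UMIs in dendritic-like cells, 1.15 and 1.17 in other B-like cells, and 3.22 and 3.22 in germinal center B-like cells. Heat shock-high B-like cells came first in the order of Ciita levels, apart from the rest. The classes that followed were germinal center B-like, dendritic-like and other B-like cells, and their ranges over the 2 libraries each overlapped with the next. Ciita had 155 UMIs in 96 FMD and 151 in 72 ad libitum dendritic-like cells. In heat shock-high cells it had 117 in 110 and 200 in 186. Per cell, its UMIs were thus more numerous in dendritic-like than in heat shock-high cells.

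Among the B-like states, levels of most of the genes lay close together. H2-Aa ran from 4954 (FMD) and 4727 (ad libitum) in heat shock-high cells to 6632 and 6207 in Egr-high cells. Cd74 was lowest in Bhlhe41-high cells, at 13452 and 12467, and highest in Egr-high cells of the FMD library (15130) and in heat shock-high cells of the ad libitum library (14205). For Cd74 the range over the 2 libraries of each of the 5 states overlapped with that of the next in order. After each cell had been thinned to 1000 UMIs, the median other B-like cell held 31 (FMD) and 30 (ad libitum) UMIs of the 10 genes, the median Egr-high cell 32 and 30, and the median heat shock-high cell 29 and 28. Cells without any were absent from all 5 states in both libraries.

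Heat shock-high cells stood apart for Ciita and H2-DMb1. Ciita had 226.3 [187.1, 271.2] CPM in FMD and 217.5 [188.4, 249.8] in ad libitum heat shock-high cells, against 113.6 [106.1, 121.4] and 113.4 [106.1, 121.2] in other B-like cells, a log2 difference of 0.99 [0.70, 1.28] in FMD and 0.94 [0.71, 1.16] in ad libitum. Of cells thinned to 1000 UMIs, 24.6% and 22.2% had a Ciita UMI, against 11.3% and 11.3% of other B-like cells. H2-DMb1 differed in the same direction, by 0.61 [0.37, 0.85] and 0.38 [0.18, 0.58]. H2-Aa was lower in the same cells, by −0.28 [−0.34, −0.23] and −0.30 [−0.35, −0.25]. In Egr-high cells Ciita was lower than in other B-like cells, with 88.5 and 85.0 CPM and log2 differences of −0.36 [−0.56, −0.16] and −0.42 [−0.60, −0.24].

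**Figure D3:**
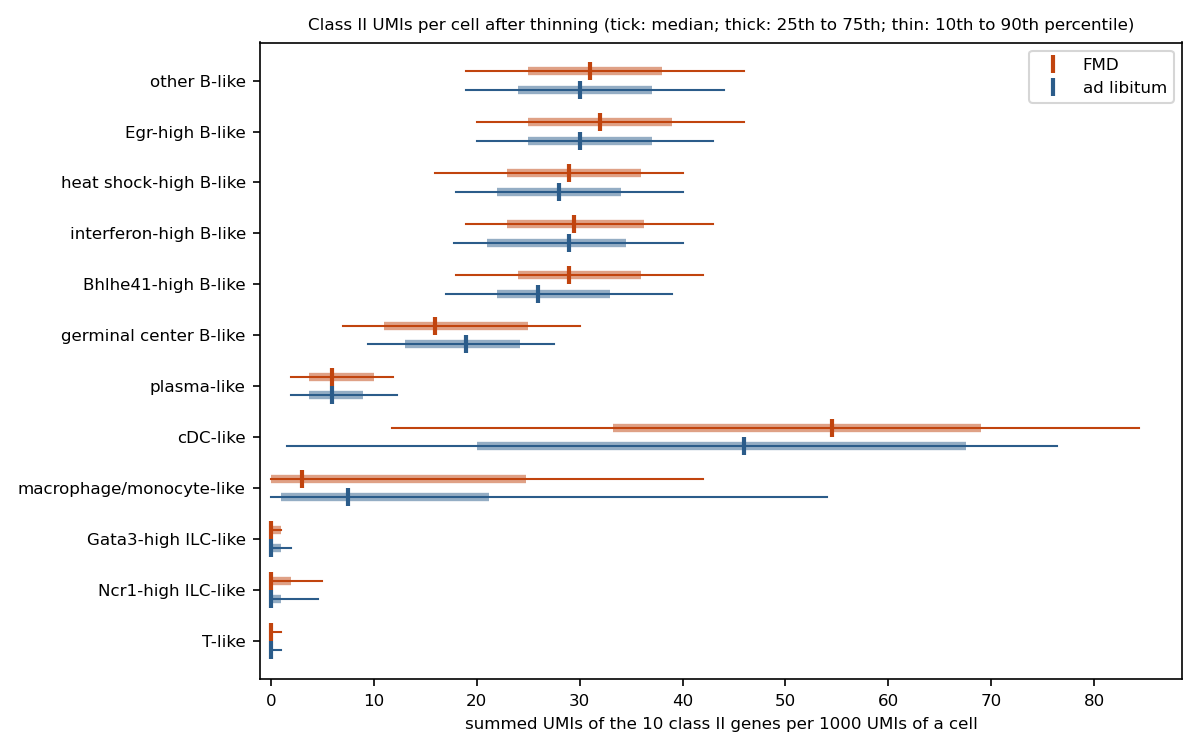
UMIs of the 10 genes per cell after thinning each cell to 1000 UMIs, by class, FMD above ad libitum; ticks are medians, thick lines span the 25th to the 75th and thin lines the 10th to the 90th percentile. Medians are 16 and 19 in germinal center B-like, 54.5 and 46 in dendritic-like, 3 and 7.5 in macrophage or monocyte-like and 0 in innate lymphoid-like and T-like cells.

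Germinal center B-like cells, which mutate their antibody genes and compete for T cell help through class II, had lower levels than B-like cells for all the genes but Ciita. H2-Aa had 2246 CPM in FMD and 2470 in ad libitum germinal center B-like cells, 0.371 and 0.429 of the B-like level in the same library, and Cd74 had 8588 and 9589, 0.587 and 0.694 of it. H2-Oa had the deepest difference, at 75.9 [61.5, 92.6] and 81.3 [62.6, 103.8], with log2 differences from B-like cells of −1.75 [−2.06, −1.46] and −1.74 [−2.12, −1.39]; with cells thinned to equal weight the mean difference was −2.85, from few UMIs. H2-DMa was close to the B-like level, at 380.1 and 429.4 with differences of −0.29 and −0.17. Ciita was above it, at 138.4 and 152.4, with differences of 0.35 [0.12, 0.57] and 0.46 [0.18, 0.72]. Germinal center B-like cells had median totals of 15571 and 11734 UMIs, against 5210 and 5064.5 in B-like cells, and levels are shares of a cell's RNA. Cd74 had 10981 UMIs in 79 FMD and 7548 in 61 ad libitum germinal center B-like cells. In B-like cells it had 211325 in 2745 and 217481 in 3078. Per cell, UMIs of every gene but H2-Oa were thus more numerous in germinal center B-like cells, and those of H2-Oa were fewer. The cause of the lower shares was not tested.

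Germinal center B-like cells were made of 3 sub-clusters that differed in cell cycle genes. One of 32 FMD and 30 ad libitum cells had little Mki67, a gene of dividing cells (62.7 and 71.4 CPM), and a dividing one of 29 and 17 cells had 911.7 and 1063. The first had Cd74 at 12010 and 10314 and Ciita at 235.3 and 185.1, and the dividing one had Cd74 at 6562 and 8253 and Ciita at 83.0 and 114.7. The 8 other genes were also lower in the dividing sub-cluster in both libraries, except H2-Ab1 in ad libitum cells, where it had 2231 CPM against 2213. Since H2-Aa and the rest were computed from the cells that were clustered, these values describe the sub-clusters and are no test.

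As a share of RNA, plasma-like cells, the antibody-secreting end of the B lineage, kept more of the invariant chain than of the other class II genes. Cd74 had 5969 [5772, 6170] CPM in 32 FMD cells and 5586 [5463, 5711] in 90 ad libitum cells, 0.408 and 0.405 of the B-like level. H2-Aa had 326.9 and 282.5, 0.0540 and 0.0491 of it, and H2-Ab1 had 708.5 and 553.7, 0.187 and 0.145 of it. The H2-Aa sum rests on part of the cells: the cell medians were 216.2 and 86.12 CPM, and 3 cells held 34.6% and 42.1% of its UMIs. Every FMD plasma-like cell and 98.9% of the ad libitum ones had a Cd74 UMI, with cell medians of 4883 and 4681 CPM. Medians of UMIs outside immunoglobulin and mitochondrial genes were 18606 and 16262 in plasma-like cells, against 4893 and 4779 in B-like cells. Cd74 had 3488 UMIs in the 32 FMD and 7849 in the 90 ad libitum plasma-like cells. In B-like cells it had 211325 in 2745 and 217481 in 3078. Per cell, Cd74 UMIs were thus more numerous in plasma-like cells, while those of H2-Aa and H2-Ab1 were fewer. H2-Ab1 was detected in 96.9% and 94.4% of plasma-like cells. Ciita had 0 UMIs in FMD plasma-like cells, which allows up to 6.31 CPM, and 8 UMIs, or 5.69 [2.46, 11.2] CPM, in ad libitum ones.

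The balance among class II messages differed too. Cd74 had 576.5 [528.7, 629.5] UMIs per 100 of H2-Aa plus H2-Ab1 in FMD and 668.0 [628.2, 710.8] in ad libitum plasma-like cells, against 150.7 and 145.8 in other B-like cells and 200 and 202.6 in germinal center B-like cells. H2-Ab1 outnumbered H2-Aa in plasma-like cells, at 216.8 [182.2, 258.7] and 196.0 [173.4, 221.7] UMIs per 100 of H2-Aa, while it had 63.2 and 66.2 in other B-like cells and 91.3 and 91.6 in germinal center B-like cells. These 2 ratios compare genes in the same cells and do not depend on scaling. The levels do: with immunoglobulin UMIs in the denominator, the mean log2 difference from B-like cells was −5.44 in place of −4.28 for H2-Aa and −2.46 in place of −1.30 for Cd74. Of regulators, Prdm1, which represses Ciita in plasma cells, had 131.8 and 105.3 CPM in plasma-like cells against 2.98 and 2.48 in B-like cells, and Pax5, a B cell identity factor, had 1.71 and 14.9 against 262.0 and 260.7. Prdm1 is 1 of the markers by which the class was named.

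Macrophage or monocyte-like cells varied widely in class II from cell to cell. Of 56 FMD cells thinned to 1000 UMIs, 37.5% had no UMI of the 10 genes and 37.5% had at least 10, and of 24 ad libitum cells 20.8% had none and 41.7% at least 10. In FMD cells, 3 of 60 cells held 41.1% of all H2-Aa UMIs, and in ad libitum cells 3 of 25 held 54.3%. The summed levels rest on few cells, and fewer cells that express a gene cannot be told apart in them from less of its RNA per cell. H2-Aa had 3189 and 3237 CPM, H2-Ab1 2695 and 2412, H2-DMa 220.3 and 276.3 and H2-DMb1 204.3 and 209.1. Ciita had 14.2 [6.14, 28.0] and 52.3 [28.6, 87.7], on 8 and 14 UMIs.

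Innate lymphoid-like cells held less class II than B-like cells, and H2-Oa stood out among the members in Gata3-high cells. Gata3-high cells, which resemble group 2 innate lymphoid cells by that gene, had H2-Aa at 163.5 [133.0, 198.8] CPM in the FMD library and 103.5 [61.3, 163.6] in the ad libitum library, against 86.1 and 70.4 in T-like cells. One FMD cell gave 47.0% of those H2-Aa UMIs and 1 ad libitum cell 55.6%. H2-Oa, in contrast, had 96.4 [73.4, 124.4] and 103.5 [61.3, 163.6], 8.17-fold and 9.95-fold the level of T-like cells (11.8 and 10.4) and 0.378 and 0.381 of that of B-like cells. Its UMIs were spread over 42 of 81 FMD cells and 11 of 24 ad libitum cells, with no more than 4 in any cell. After thinning to 1000 UMIs, 8.86% [3.64, 17.4] and 8.33% [1.03, 27.0] of Gata3-high cells had an H2-Oa UMI, against 0.976% [0.505, 1.70] and 1.04% [0.554, 1.77] of T-like cells, where median totals were 7218 and 7197 UMIs beside 8143 and 7688.5.

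Its partner H2-Ob did not share this level. It rested on 13 UMIs in FMD Gata3-high cells, 21.25 [11.3, 36.3] CPM, and on 0 in ad libitum ones, which allows up to 21.2 CPM, against 15.3 and 10.9 CPM in T-like cells. The 3 H2-DM genes together had 24 and 4 UMIs. Ciita had 0 UMIs in FMD and 2 in ad libitum Gata3-high cells. B cell genes in these cells summed to 91.53 and 51.75 CPM over 10 markers, of which 8 and 6 were detected and Vpreb3 was at 0 in both libraries, against 81.4 and 64.9 in T-like cells. Without doublet removal the mean log2 difference of H2-Oa from T-like cells was 1.91 in place of 3.17.

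Ncr1-high cells, which resemble group 1 innate lymphoid or natural killer cells by that gene, had more of the presenting chains. H2-Aa had 378.9 and 326.0 CPM in FMD and ad libitum Ncr1-high cells, H2-Ab1 351.0 and 344.4, H2-Eb1 329.2 and 282.9 and Cd74 1152 and 762.6. H2-Aa was thus 4.40-fold and 4.63-fold the T-like level, H2-Ab1 5.27-fold and 6.17-fold and Cd74 5.33-fold and 4.52-fold. These UMIs came from few cells: the top 3 of 55 FMD cells held 54.1% and the top 3 of 23 ad libitum cells 84.9% of H2-Aa, and 51.0% and 68.2% of thinned cells had no UMI of the 10 genes. Of 10 B cell markers 9 (FMD) and 8 (ad libitum) were detected, at a sum of 161.5 and 252.2 CPM, against 81.4 and 64.9 in T-like cells. Of 13 macrophage or monocyte markers 6 and 5 were detected, at a sum of 587.0 and 436.7, against 397.3 and 366.6 in T-like cells. The T cell genes Cd3e and Trac had 65.2 and 65.2 CPM in FMD and 104.6 and 227.6 in ad libitum Ncr1-high cells. In Gata3-high cells they had 36.0 and 34.3 in FMD and 17.3 and 17.3 in ad libitum. The part of B, macrophage and T cells in the class II levels was not tested. Csf1r, C1qa, C1qb, Adgre1, Lyz2 and Fcgr1, among those macrophage markers, were at 0 in both libraries. Il22-high cells, which resemble group 3 innate lymphoid cells by that gene, numbered only 8 and 9 and had H2-Aa at 798.8 and 260.0 and Cd74 at 2574 and 682.5. H2-Oa there was 73.96 [24.0, 172.6] and 65.0 [17.7, 166.4], on 5 and 4 UMIs.

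**Figure D4:**
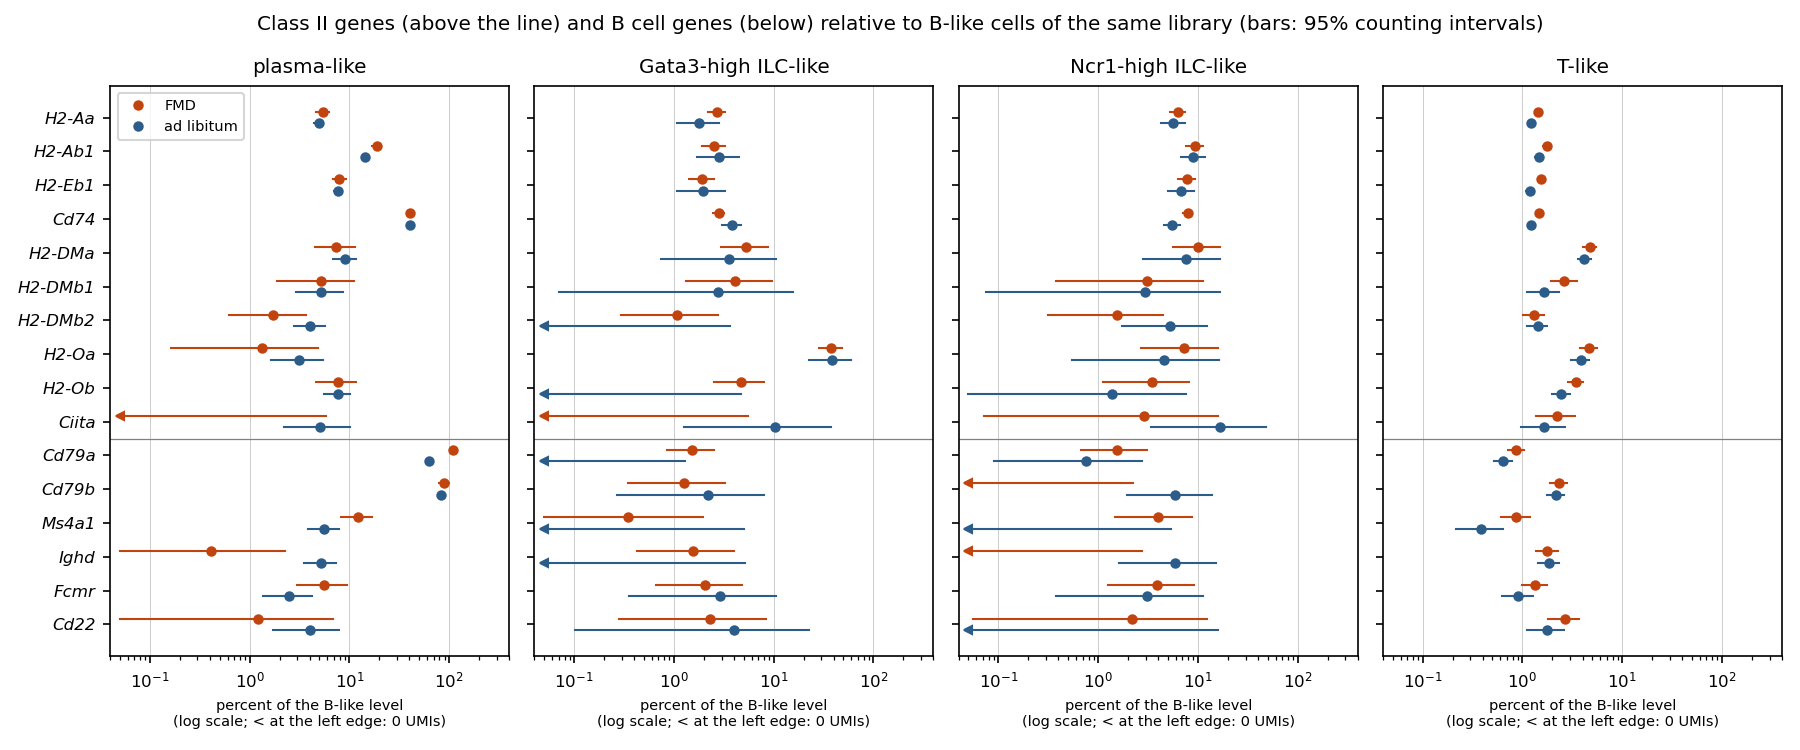
Level in plasma-like, Gata3-high and Ncr1-high innate lymphoid-like and T-like cells as a percent (log axis) of the level in B-like cells of the same library, for the 10 class II genes (above the line) and for B cell genes (below), FMD above ad libitum, with 95% counting intervals. H2-Oa in Gata3-high cells lies at 37.8% and 38.1%, while the B cell genes drawn there stay at or under 4.02%.

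In T-like cells the class II genes lay between 1.30% and 4.70% of the B-like level in the FMD library and between 1.20% and 4.16% in the ad libitum library. The 6 B cell genes drawn beside them lay between 0.863% and 2.64% and between 0.385% and 2.15% there. The lower end of the class II genes fell within the range of the B cell genes, and H2-DMa, H2-Oa and H2-Ob lay above it in both libraries.

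Across 26 points (13 classes by 2 libraries) the 10 genes varied together, with pairwise Pearson correlations of log2 levels between 0.63 (Cd74 with H2-Oa) and 0.99 (H2-Ab1 with H2-Eb1). The points share libraries and cells, so this is a description. The genes whose pattern was most like the mean of the members, among 7410 with at least 500 UMIs, were Siglecg (0.97), an inhibitory B cell receptor, Ly86 (0.96), the partner of a Toll-like receptor relative, Lmo2 (0.93), Spib (0.93), an ETS factor of B and plasmacytoid dendritic cells, Cd83 (0.92), which protects surface class II from degradation, Slc15a4 (0.92), a lysosomal transporter, the costimulatory ligand Cd86 (0.92) and BC028528 (0.92). For Ciita alone they were Bcl11a (0.93), Spib (0.91), Siglecg (0.90), Ly86 (0.89) and Nrm (0.89).

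Of the 10 genes, 8 lie within 224 kb of chromosome 17 (GRCm38, 34092340 to 34316674), in the order H2-Oa, H2-DMa, H2-DMb2, H2-DMb1, H2-Ob, H2-Ab1, H2-Aa and H2-Eb1, with H2-Aa the only one of them on the minus strand. Ciita lies on chromosome 16, from 10480059 to 10528418. Class II promoters are known for a short stretch that holds an X1 box, an X2 box and a Y box, where RFX, CREB-type factors and NF-Y assemble and Ciita docks. RefSeq promoter windows (GRCm38.p6) were used for 7 of the 10 genes, H2-DMa with 2 entries, and not for H2-Ab1, Cd74 and Ciita. Windows of 250 bases before the gene start were searched on both strands for the Y letters TGATTGG. The X1 letters searched were AGCAAC. The X2 letters searched were ATGATGC. All were chosen after the windows had been read, and in the stretches printed no match overlaps another. The stretches below are those around a match to the Y letters, and they were not compared with how the genes vary together. Capitals mark the letters searched, X before Y.

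H2-Oa (chr17:34092264-34092350, plus strand): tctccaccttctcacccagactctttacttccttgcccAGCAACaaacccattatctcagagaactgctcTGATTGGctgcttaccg
H2-DMb2 (chr17:34145087-34145173, plus strand): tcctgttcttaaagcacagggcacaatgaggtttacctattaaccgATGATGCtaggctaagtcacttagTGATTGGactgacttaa
H2-DMb1 (chr17:34153058-34153144, plus strand): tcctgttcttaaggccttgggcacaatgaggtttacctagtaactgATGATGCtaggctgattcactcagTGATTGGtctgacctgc
H2-Ob (chr17:34238776-34238862, plus strand): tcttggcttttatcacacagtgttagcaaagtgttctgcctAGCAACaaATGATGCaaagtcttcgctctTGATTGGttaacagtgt
H2-Aa (chr17:34287857-34287943, minus strand): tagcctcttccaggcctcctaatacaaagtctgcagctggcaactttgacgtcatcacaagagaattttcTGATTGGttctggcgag
H2-Eb1 (chr17:34305736-34305822, plus strand): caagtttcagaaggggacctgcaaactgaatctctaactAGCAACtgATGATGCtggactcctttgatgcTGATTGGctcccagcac

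TGATTGG occurred in 6 of the 8 entries, against 7.23% of all 32851 mouse windows, and both H2-DMa entries were without it. It began 45 to 92 bases before the gene start. Y letters occurred with X1 or X2 letters in 5 of the 8 entries, against 1.16% of all windows. Since the letters were chosen after these windows had been read, the shares beside all windows are no test. The X1 letters occurred in 12.2% and the X2 letters in 1.99% of all windows. H2-Ob and H2-Eb1 have both X letters a pair of bases apart, and the paralogs H2-DMb1 and H2-DMb2 share the X2 letters and the distance of 17 bases to the Y letters. In H2-Aa the Y letters stand alone. A match is a description of the letters, and its absence says only that these letters are not in this window.

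Between the diets, the class II genes were close to level in B-like cells, and few of them were 1.5-fold apart elsewhere. Of 110 gene and class pairs in 11 classes, 86 had the required 100 UMIs over both libraries, and 4 of them were at least 1.5-fold apart. By class, 1.41% to 14.8% of all genes tested were that far apart in either direction, so the 4 calls are no result about the members as a group. Cd74 in Ncr1-high and H2-Aa in Gata3-high innate lymphoid-like cells were higher in FMD. Ciita in dendritic-like and H2-DMb1 in germinal center B-like cells were lower. Intervals lay above 0 for 26 pairs and below 0 for 12, where by class 5.28% to 14.5% of all genes tested had intervals above 0 and 5.36% to 14.2% below it. Intervals narrow as UMIs rise, and in B-like cells Cd74 and the presenting chains hold far more UMIs than the minimum of 100. The counts for members and the shares of all genes are therefore not like for like. Over all B-like cells 0 of 10 members passed 1.5-fold, where 1.35% of 8711 genes did, and the largest difference was H2-Oa at −0.09 [−0.16, −0.03]. Cd74 was 0.08 [0.07, 0.09] and H2-Aa 0.07 [0.06, 0.09] higher in FMD, and the spread between mice, which these pooled libraries do not show, is not part of those intervals.

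**Figure D5:**
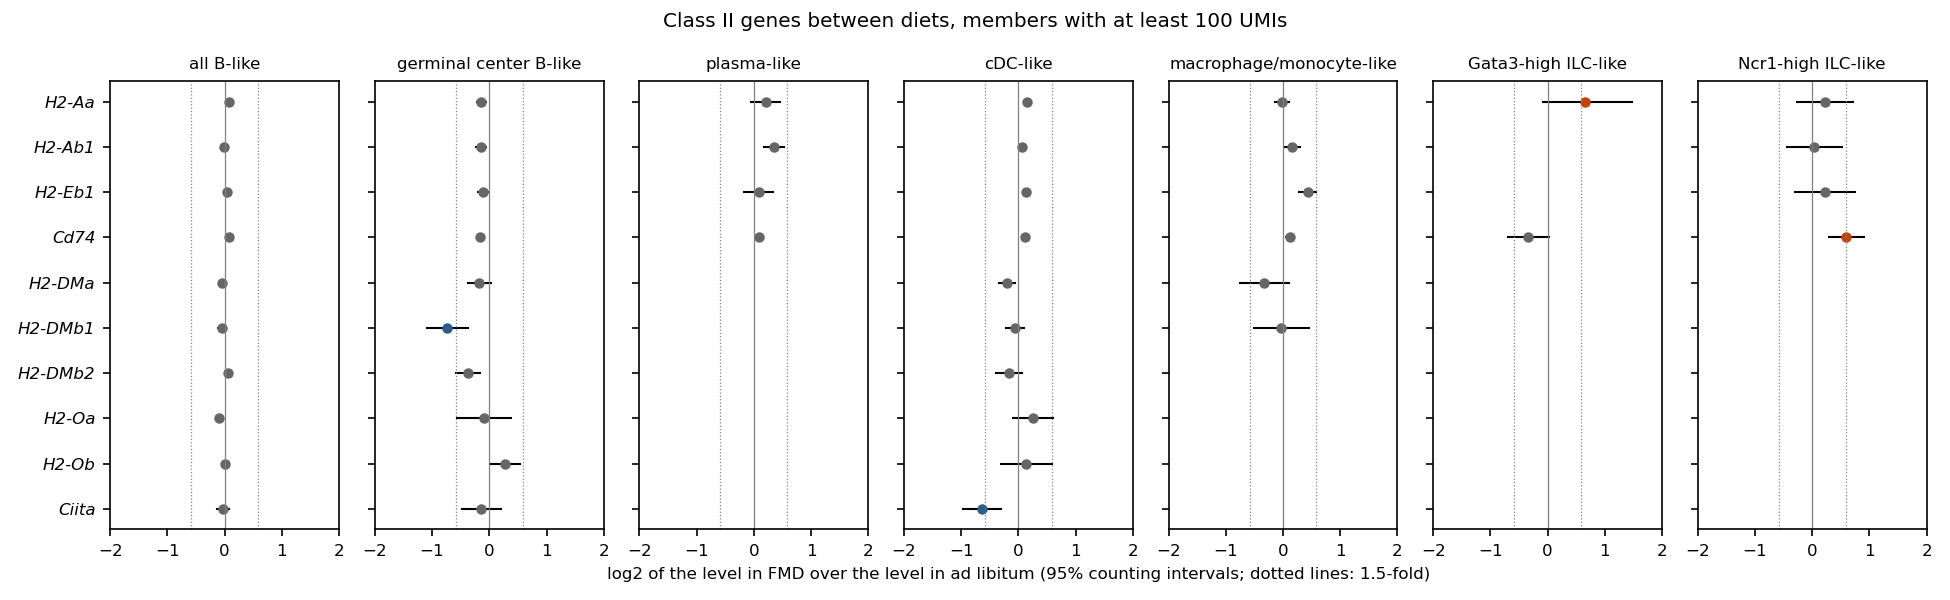
Log2 ratio of FMD over ad libitum for each gene and class, with 95% counting intervals; dotted lines mark 1.5-fold, points past them are colored, and only genes with at least 100 UMIs over both libraries are drawn. All genes of B-like cells lie between −0.09 and 0.08, and Ciita in dendritic-like cells is at −0.63.

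The B-like states taken one by one differed by more in some genes, under 1.5-fold. None of the 10 members passed 1.5-fold in other B-like cells (background 1.41% of genes), Egr-high cells (2.11%), heat shock-high cells (4.99%), interferon-high cells (4.88%) or Bhlhe41-high cells (2.3%). In Egr-high cells H2-DMa had 402.2 CPM in FMD and 477.5 in ad libitum, −0.25 [−0.35, −0.14], and H2-Oa 220.5 and 257.2, −0.22 [−0.36, −0.08], while H2-Aa, H2-Eb1 and Cd74 were 0.09 to 0.11 higher. In interferon-high cells H2-Aa had 6050 and 5231, 0.21 [0.13, 0.29], and H2-Ab1 3767 and 3349, 0.17 [0.07, 0.27]. In heat shock-high cells H2-Oa had 243.7 and 312.1, −0.36 [−0.67, −0.05]. The median over the members was between −0.002 and 0.13 in these 5 states.

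In dendritic-like cells 1 of 10 members passed 1.5-fold, lower in FMD, where 5.76% of 3192 genes were lower by that much and 9.21% in either direction. Ciita had 102.9 CPM in FMD and 159.5 in ad libitum cells, −0.63 [−0.96, −0.30], on 155 and 151 UMIs from 51 of 96 and 46 of 72 cells. It was lower in FMD in each of the 3 sub-clusters of the class: 80.4 against 163.0 in the one of 50 and 40 cells, 131.8 against 149.7 in the one of 39 and 23 cells and 94.2 against 197.8 in a Fscn1-high sub-cluster of 7 and 9 cells. These sub-clusters are parts of the same cells, so the values describe the class sum and are no further test. Over the class, genes that Ciita controls differed in both directions. H2-Aa was 0.14 [0.11, 0.18], H2-Eb1 0.13 [0.09, 0.17] and Cd74 0.12 [0.09, 0.14] higher in FMD, H2-DMa was −0.19 [−0.34, −0.05], and the median over the members was 0.09 beside −0.03 over all genes tested. By sub-cluster in the same order, H2-Aa had 13624 CPM in FMD and 12038 in ad libitum cells, 7723 and 7528, and 1884 and 5490 in the Fscn1-high one. Cd74 was likewise lower in FMD only in the Fscn1-high one, at 6819 and 15925. Without doublet removal Ciita was at −0.53, under 1.5-fold, and H2-Aa was at −0.031, H2-Ab1 at −0.15 and H2-Eb1 at −0.21, the opposite direction. Of 8 neutrophil markers 6 and 5 were detected, at a sum of 19.25 CPM in FMD and 1371 in ad libitum dendritic-like cells, with Cxcr2 and G0s2 at 0 in both, against 126976 and 144888 in neutrophil-like cells; their part in these differences was not tested.

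In the same dendritic-like cells, where 9.21% of 3192 genes passed 1.5-fold in either direction, some genes around the pathway differed by more. Irf1, an interferon-induced factor that acts on an inducible Ciita promoter, had 56.4 CPM in FMD and 363.4 in ad libitum cells (−2.69 [−3.05, −2.34]). It also had 86.6 and 603.8 in neutrophil-like cells. Among 14 class II promoter factors and Ciita regulators, 6 were measured and 1 passed, Irf8, a factor that dendritic cells need, with 193.2 and 481.7 (−1.32 [−1.53, −1.10]). Among 6 costimulatory genes, 5 were measured and 2 passed, Cd40 (−0.74 [−1.10, −0.38]) and Icosl (−0.65 [−1.01, −0.29]), both lower in FMD. Among 11 genes of lysosomal processing, 9 were measured and 1 passed, Cst3, a protease inhibitor that is also a marker used to name the class, with 3559 and 6287 (−0.82 [−0.87, −0.77]). None of the 5 measured genes of class II turnover and display passed.

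In macrophage or monocyte-like cells 6 of 10 members were measured and 0 passed 1.5-fold, where 14.8% of 1308 genes did. H2-Eb1 had 2551 CPM in FMD and 1889 in ad libitum cells, 0.43 [0.29, 0.58], but 3 of 60 and 3 of 25 cells held 46.1% and 50.6% of its UMIs, and with cells thinned to equal weight it was −0.29 [−0.77, 0.21] and H2-Ab1 (0.16) was −0.72 [−1.15, −0.28]. Irf1 (151.0 and 317.4, −1.07 [−1.52, −0.62]) and Jak2, a receptor kinase (−0.85 [−1.37, −0.33]), were lower in FMD and Ifngr1, a receptor chain, was higher (0.72 [0.18, 1.29]). Of 10 measured genes of lysosomal processing 7 did not pass 1.5-fold and 3 proteases were higher by that much: Ctsl had 332.2 and 160.5 (1.05 [0.56, 1.56]), Lgmn 1114 and 660.9 (0.75 [0.51, 1.00]) and Ctsd 493.9 and 321.1 (0.62 [0.27, 0.99]). Irf8 (−1.06) and Cd274, the ligand of PD-1 (−1.12), were lower and Cxcr4, a chemokine receptor that also binds MIF (0.73), was higher. The 60 FMD and 25 ad libitum cells also differed in the macrophage marker C1qa, at 254.1 and 0 CPM, and in Thbs1, at 7313 and 4607. The part of the make-up of the class in these differences between diets was not tested.

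In germinal center B-like cells 1 of 10 members passed 1.5-fold, lower in FMD, where 2.21% of 3342 genes were lower by that much and 4.43% in either direction. H2-DMb1 had 103.2 [86.4, 122.4] CPM in FMD and 171.5 [143.8, 203.0] in ad libitum cells, −0.73 [−1.09, −0.38], and lay lower in all 3 sub-clusters (122.9 against 174.5, 83.0 against 165.7 and 115.1 against 172.7). The sub-clusters are parts of the same cells, so this is a description and no further test. H2-DMb2 had 342.6 and 444.6, −0.38 [−0.58, −0.17]. H2-Ob ran against the rest, with 294.1 and 243.9, 0.27 [0.02, 0.53], so H2-O per 100 H2-DM was 44.8 [40.1, 49.97] in FMD and 31.1 [26.9, 35.8] in ad libitum cells. The median over the members was −0.14, and 6 of 10 intervals lay below 0, as did those of 7.09% of all genes tested. Cd74 alone had 10981 and 7548 UMIs, and intervals narrow as UMIs rise, so that count and that share are not like for like. H2-Aa differed by sub-cluster, with 3069 and 2420 in the low-Mki67 cells, 1779 and 2057 in the dividing cells and 2090 and 3137 in the third; dividing cells were 29 of 79 in FMD and 17 of 61 in ad libitum. With cells thinned to equal weight the median was 0.02. Of list genes, Ctsd was higher in FMD (0.69 [0.06, 1.36]) and Cd274 lower (−0.73 [−1.30, −0.15]).

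In plasma-like cells 4 of 10 members were measured and 0 passed 1.5-fold, where 6.38% of 2506 genes did. H2-Ab1 was 0.36 [0.18, 0.53] and Cd74 0.10 [0.04, 0.15] higher in FMD. Irf8 was higher (70.2 and 43.4, 0.69 [0.08, 1.29]) and Cd274 lower (143.7 and 221.3, −0.62 [−0.99, −0.27]) in FMD. In Gata3-high innate lymphoid-like cells 2 members were measured and H2-Aa passed, 0.66 [−0.07, 1.47] higher in FMD, where 7.10% of 916 genes were higher by that much; its interval crosses 0, 1 cell gave 47 of its 100 FMD UMIs, and without doublet removal it was −0.34. In Ncr1-high cells 4 members were measured and Cd74 passed, 0.60 [0.30, 0.90] higher in FMD, where 8.84% of 690 genes were higher by that much. It was −0.06 with class II genes kept among the clustering genes, −0.17 at a clustering resolution of 2 and −0.10 when cells with over 10% mitochondrial UMIs were left out. In T-like cells 8 members were measured and 0 passed (2.10% of 8507 genes did). Of their intervals 5 lay above 0, as did those of 9.45% of all genes, a comparison that also depends on the UMIs of each gene. Cd74 was at 216.1 in FMD and 168.6 in ad libitum T-like cells (0.36 [0.26, 0.45]). The B cell markers there were at 81.4 and 64.9, and their part in this was not tested.

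The remaining list genes that passed were few in lymphoid classes. All genes past 1.5-fold in either direction were 1.35% in all B-like, 1.41% in other B-like, 2.11% in Egr-high and 2.3% in Bhlhe41-high cells. They were 4.99% in heat shock-high, 4.88% in interferon-high, 10.4% in Gata3-high and 13.6% in Ncr1-high cells. The genes below are named singly and are no result about their lists. In B-like cells Irf1 (30.1 and 45.2, −0.59 [−0.76, −0.41]) and Socs1, an inhibitor of interferon signaling (4.50 and 6.80, −0.59 [−1.06, −0.14]), were lower in FMD. They are 2 of 7 measured genes from interferon gamma to Ciita, and 0 of 13 promoter factors passed. By state, Irf1 was lower in other B-like (−0.70 [−0.94, −0.47]) and Egr-high cells (−0.63 [−1.14, −0.14]), and Rfx5, a subunit of the RFX factor, was lower in Egr-high cells (14.7 and 23.7, −0.69 [−1.22, −0.17]). Irf4, which drives plasma cell fate, was higher (0.79 [0.12, 1.52]) and Irf8 lower (−0.71 [−1.01, −0.41]) in interferon-high cells. Cd86 was higher (264.9 and 165.3, 0.68 [0.34, 1.02]) and Mif, the cytokine that binds Cd74, lower (135.4 and 211.0, −0.64 [−1.06, −0.24]) in heat shock-high cells. Cd44, the partner of Cd74 in MIF signaling, was higher in FMD in Egr-high (0.64 [0.21, 1.08]), Gata3-high (1.01 [0.39, 1.69]) and Ncr1-high cells (1.06 [0.38, 1.81]) and lower in Bhlhe41-high cells (−0.60 [−0.84, −0.36]). In Ncr1-high cells Irf8 was lower (248.5 and 793.4, −1.68 [−2.10, −1.26]) and Cxcr4 higher (0.69 [0.13, 1.28]). There 1 promoter factor and 4 genes of class II turnover and display were measured.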

How the data were processed

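Single-cell 3′ RNA-seq of CD45+ cells gave 1 library per diet, 5877 FMD and 6089 ad libitum barcodes. The deposited values are raw UMI counts per gene and barcode, made with Cell Ranger 3.1.0 per the file headers; per the submitters' processing notes, CASAVA 1.8 and Seurat 2.3.4 were also used and the build was GRCm38. No replicate exists within a diet, so no p-value was computed.

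Barcodes with under 200 genes (441 FMD, 475 ad libitum), over 20% mitochondrial UMIs (694, 661), markers of 2 lineages (142, 94; at least 5 UMIs and 0.5 per 1000 UMIs of each) or epithelial markers (1, 1) were removed in turn. Scrublet called 1 and 0 doublets, and its calls entered the same filter as the lineage markers, so the counts of that filter can include them. Cells were clustered with scanpy 1.11.5 and leidenalg 0.10.2 (2000 variable genes, 30 components, 15 neighbors, resolution 1), and classes were named from marker lists. A low-depth B cell cluster, a myeloid and a neutrophil sub-cluster in which other markers led stayed unnamed.

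Counts were summed per class and library and scaled to CPM. Levels carry exact Poisson intervals, shares exact binomial (Clopper-Pearson) intervals and ratios exact conditional binomial intervals at 95%, and a count of 0 allows up to the upper Poisson bound. Genes with at least 100 UMIs over both libraries, in classes of at least 20 cells per library, were called apart at 1.5-fold. Cells were thinned to 1000 UMIs for shares. The calculation was run on simulated class sums that vary by counting error only. These hold no spread between cells or mice, so the run checks the arithmetic and not how the intervals hold in real cells. All 10 genes are drawn for each class in the figure of levels, and the text gives part of these levels. Listed pathway genes past 1.5-fold are named in B-like, germinal center, plasma, dendritic, macrophage and innate lymphoid classes. Where more than 4 passed in a list and class, the 2 highest and 2 lowest are named. The 8 genes most like the members and 5 most like Ciita are also named. The members and gene lists were chosen with earlier results of these data known, and the lineage and epithelial filters, sub-clustering and names were set after seeing the data. Some listed genes that passed are not reported here.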

Additional observations from a re-analysis of the deposited data

How the results depend on the processing

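No paired analysis was possible because each diet has 1 library. Of 891 single-gene differences between diets under the alternatives, 780 moved by less than their counting interval, 107 moved further, and 4, of genes called apart, turned round. Over called and uncalled genes 81 changed sign, 12 of them from an interval off 0; H2-Oa in all B-like cells (−0.09) was 0.04 with cells thinned. The cause was not tested, except that scaling to all UMIs adds immunoglobulin by construction. Cd74 in Ncr1-high cells (0.60) was −0.063 with class II genes kept for clustering, −0.17 at resolution 2 and −0.10 at 10% mitochondrial UMIs, and the median over the members there (0.22) was −0.52, −0.62 and −0.52 under the same settings and −0.32 without doublet removal. Without doublet removal, H2-Aa in Gata3-high cells (0.66) was −0.34, and member medians were −0.78 in Gata3-high (0.16) and −0.18 in dendritic-like cells (0.09). The level differences were then 0.15 for H2-Aa, 0.20 for Cd74 and −1.64 for H2-Oa in dendritic-like over B-like cells (0.79, 0.69 and −1.11), and 1.91 for H2-Oa in Gata3-high over T-like cells (3.17). With cells thinned, member medians were 0.017 in germinal center B-like (−0.14), 0.24 in dendritic-like and −0.27 in macrophage or monocyte-like cells (0.05). Level differences from B-like cells were then 0.56 for H2-Aa and 0.52 for Cd74 in dendritic-like, −2.85 for H2-Oa in germinal center B-like (−1.75) and −1.39 for Cd74 in plasma-like cells (−1.30). Scaling to all UMIs gave −5.44 for H2-Aa (−4.28) and −2.46 for Cd74 in plasma-like and 0.73 for Cd74 in dendritic-like cells; without the top cell, Cd74 in plasma-like cells was −1.36. At resolution 0.5, Ciita in heat shock-high over other B-like cells was 0.51 (0.97). Pairs called higher (2) were 1 with class II genes kept, at resolution 0.5 or 2, at 10% mitochondrial UMIs and at a median ratio of 0, and 0 without doublet removal, with thinning and at 2-fold. Pairs called lower (2) were 5 at resolution 2, 4 at a minimum of 20 UMIs, 1 with thinning and 0 at 2-fold. Classes of under 100 cells per library limit what small differences can be seen.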

Other observations

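Classes with under 20 cells in a library held too few for comparison. Plasmacytoid dendritic-like cells, 6 in FMD and 4 in ad libitum, had medians of 1 and 4 UMIs of the 10 genes per cell thinned to 1000 UMIs. A myeloid sub-cluster in which other markers led, 11 FMD and 28 ad libitum cells with median totals of 8924 and 934 UMIs, stayed unnamed and had H2-Aa at 5268 and 3393 CPM.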
